A study of Caenorhabditis elegans with 2 samples.

Results

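The genes described here are 9 Caenorhabditis elegans genes whose products act on DNA around the replication fork: the replication protein A genes rpa-1, rpa-2 and rpa-4, the ligase gene lig-1, the flap nuclease gene crn-1, the topoisomerase genes top-1 and top-2, and the chromatin assembly factor genes chaf-1 and chaf-2. They were taken by name, and all 9 were found among the 19973 nuclear protein-coding genes of the annotation. Binding of EFL-1, a worm E2F factor, was measured by chromatin immunoprecipitation with sequencing in 1 group of 2 biological replicates: whole young adult hermaphrodites of strain YL479, whose EFL-1 protein ends in a GFP-FLAG tag, pulled down with an antibody that the descriptions give as anti-GFP and the antibody label as efl-1. The labels give neither the promoter of the tagged gene nor the state of the untagged efl-1 copy, and whole animals mix germline and body tissue, so a site cannot be assigned to a cell type. Depth is unknown, since reads per peak are not part of the lists. Of the 9 genes, 6 lie on chromosome I, 2 on II and 1 on V, and all positions are on build ce11.

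E2F factors bind short sites rich in CG steps upstream of genes needed for S phase, together with a partner protein and, in the DREAM complex, with proteins that hold such genes silent outside the cycle. Replication protein A coats the single strands opened at a fork, flap nuclease and ligase finish the pieces of the lagging strand, topoisomerases take up the twist ahead of and behind the fork, and chromatin assembly factor 1 (CAF-1) loads histones H3 and H4 onto the new duplex. The adult worm gonad, with its dividing germ cells and its oocytes, is where most of this work takes place in an adult.

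The sequences printed here are those at top-2 and rpa-1, read from the RefSeq sequence of build ce11, plus strand, which is also the sense strand of both genes. Their choice does not rank these sites above those of the other genes. The first lies between top-2 and its neighbour npp-3 (chrII:11874789-11874988), around the summit of the top-2 peak, with untranslated exon sequence left out. The second (chrII:7663934-7664134) lies around the summit 548 bp upstream of rpa-1. The third (chrII:7664388-7664581) ends at the base before the annotated rpa-1 start, with a weaker candidate in it. Capitals mark matches on either strand to the short E2F sequence TTNNCGC, where each N is C or G. The long form TTTNNCGC has a further T in front, so every long site is also a short one.
top-2 peak: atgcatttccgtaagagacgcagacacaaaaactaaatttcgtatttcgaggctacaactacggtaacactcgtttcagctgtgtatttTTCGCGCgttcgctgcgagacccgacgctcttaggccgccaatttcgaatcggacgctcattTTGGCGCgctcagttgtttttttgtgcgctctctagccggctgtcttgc
rpa-1 distant peak: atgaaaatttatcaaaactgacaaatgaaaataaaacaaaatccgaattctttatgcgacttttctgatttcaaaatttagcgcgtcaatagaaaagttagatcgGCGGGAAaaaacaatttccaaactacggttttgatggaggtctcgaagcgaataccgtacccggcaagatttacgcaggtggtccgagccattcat
rpa-1 near candidate: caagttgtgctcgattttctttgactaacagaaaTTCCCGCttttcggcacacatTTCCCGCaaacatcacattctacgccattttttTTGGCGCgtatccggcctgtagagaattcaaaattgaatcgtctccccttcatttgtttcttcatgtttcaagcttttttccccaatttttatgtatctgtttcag

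Among the 200 bases at top-2 were 2 long sites, with centres 8 bp and 54 bp from the summit. The distant rpa-1 window held 1 long site, on the minus strand, 8 bp from its summit. The near rpa-1 window held 3 short sites, of which 2 were long, and it ended in TTTCAG. A match is a description of letters and was not tested for binding.

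Reproducible peaks, meaning those in the authors' optimal list after the irreproducible discovery rate (IDR) filter, stood within 500 bp of a start at crn-1, top-2 and chaf-2. That is 3 of 9 genes (33.3%, with a 95% Wilson interval of 12.1 to 64.6%), where the share over the whole annotation was 8.86%. A start means the 5′ end of a coding transcript, and the distance was taken from the peak's highest point, its summit. The pooled signal values, on the authors' own scale whose unit is not stated, were 557 at top-2, 138 at crn-1 and 130 at chaf-2. The median of the 3 was 138, against 92.8 for the highest peak of each of the 1770 genes with one. Just beyond the distance stood further reproducible peaks, 548 bp upstream of rpa-1 with 225 and 589 bp upstream of rpa-2 with 62.5. Within 1000 bp the count was thus 5 of 9 (55.6%, interval 26.7 to 81.1%), against 11.3% over the annotation. The last gene inside the limit was crn-1 at 418 bp, and 0.616% of all genes had their nearest reproducible summit beyond 500 and up to 600 bp away. That band was not a planned setting and takes in the distances of rpa-1 and rpa-2, so its share is no measure of how unusual they are. The genes were chosen with earlier results known, so these shares carry no test.

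Some other ways of counting gave other members, and some gave the same 3. Within 200 bp only chaf-2 was left, 1 of 9, against 4.73% of all genes. The stronger 50% of the peaks left all 3 genes, against 5.31%, and counting each peak for its nearest start left crn-1 and chaf-2, against 6.84%. The strongest 2179 candidates of replicate 1 gave 4 of 9 genes, with rpa-1 added, against 8.94%, and those of replicate 2 gave 3, against 8.27%. Any pooled candidate, however weak, was within 500 bp at 7 of 9 genes, against 38%. For the single replicates these numbers were 9 of 9 in replicate 1, against 37.7%, and 8 of 9 in replicate 2, against 38.8%.

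**Figure D1:**
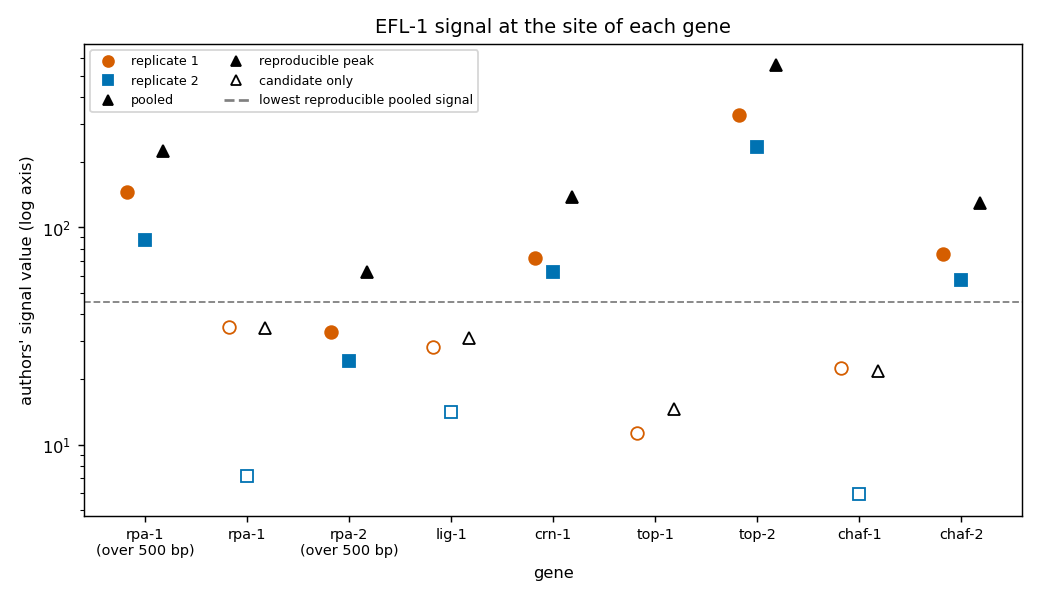
The authors' signal value (log axis) in replicate 1, replicate 2 and the pool is plotted for the site of each gene, filled where the pooled site is a reproducible peak and open where it is a candidate only. The dashed line at 45.6 is the lowest pooled signal of a reproducible peak and applies to the pooled values. Both replicates stand highest at top-2 (330 and 234), the ratio of replicate 1 to replicate 2 is larger at the near rpa-1 and chaf-1 candidates (4.83 and 3.81) than at top-2 (1.41), and rpa-4 had no pooled candidate within 500 bp and is not drawn.

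Of the RPA genes, rpa-1 encodes the large DNA-binding subunit. The gene lies on II from 7664582 to 7667110 on the plus strand, 827 bp from its divergent neighbour F18A1.7. Its distant peak spanned 7663965 to 7664125 in intergenic sequence and had a signal value of 145 in replicate 1, 88.02 in replicate 2 and 225 in the pool. It ranked 222 among the 29968 nuclear candidates of replicate 1, 194 among the 29972 of replicate 2 and 216 among the 2179 nuclear reproducible peaks. Both replicates therefore placed it high, with summits that lay 14 bp and 26 bp from the pooled one. It was 280 bp from the start of F18A1.7 and thus nearer to that gene than to rpa-1.

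The near candidate of rpa-1, with its summit 94 bp upstream, behaved otherwise. Its signal value was 34.7 in replicate 1, 7.17 in replicate 2 and 34.5 in the pool, where the lowest reproducible peak had 45.6. Replicate 1 ranked it 1814 and replicate 2 ranked it 17455. With the strongest 2179 candidates of replicate 1 alone, rpa-1 counted as bound within 500 bp, and with those of replicate 2 alone it did not. The ratio of replicate 1 to replicate 2 was 4.83 here. No source used here says whether the replicate lists share a scale, so a ratio is read only beside the ratios of other peaks. Of the 1909 candidates just below the reproducible list that were matched in both replicates, 46 (2.41%) had a higher ratio, and the median was 1.52. In the window from 250 bp upstream to 50 bp downstream of its start rpa-1 held 4 short E2F sites, 2 of them long. Among the 29314 such windows of all protein-coding starts, 11 held 4 or more short sites and 80 held 2 or more long ones. These limits were not planned settings and are the counts of rpa-1 itself. The numbers are therefore no measure of how unusual rpa-1 is.

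The second RPA subunit gene, rpa-2, lies on chromosome I from 4770292 to 4771358 on the plus strand. Its peak, from 4769620 to 4769751, was intergenic and had 33.03 in replicate 1, 24.3 in replicate 2 and 62.5 in the pool, ranking 1919, 1580 and 1488. The pooled value is below the median of 80.2 over all reproducible peaks, and the ratio of replicate 1 to replicate 2 was 1.36, against a median of 1.70 over 2147 peaks matched in both. The summit in replicate 2 lay 134 bp from the pooled one. No E2F sequence stood within 100 bp of the pooled summit. A long one stood 228 bp upstream of the rpa-2 start, where the pool had no candidate within 500 bp. Weak candidates of single replicates were present there, with 11.4 in replicate 1 at 88 bp downstream and 5.85 in replicate 2 at 172 bp upstream.

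The paralogue rpa-4, on chromosome I from 5509467 to 5511705 on the minus strand, had no reproducible peak and no pooled candidate within 500 bp of any of its 6 starts. Single-replicate candidates of 7.27 in replicate 1 and 7.61 in replicate 2 ranked 27330 and 15607, and the nearest reproducible summit was 24019 bp away. A pooled candidate of 34.7 lay 703 bp downstream of its innermost start, past the end of the gene. The gene held no short or long E2F sequence from 700 bp upstream to 100 bp downstream of its outermost start. Within 1000 bp the highest pooled values were thus 225 at 548 bp in rpa-1, 62.5 at 589 bp in rpa-2 and 34.7 at 703 bp in rpa-4. The last of these was a candidate only. Within 500 bp rpa-1 had a pooled candidate of 34.5, and rpa-2 and rpa-4 had none.

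**Figure D2:**
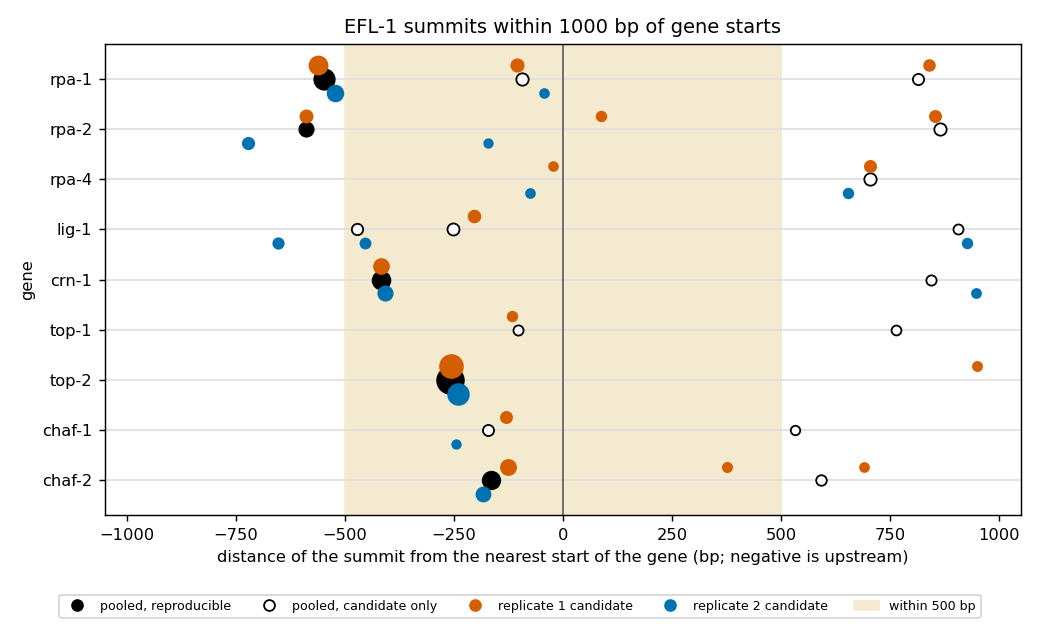
Summits within 1000 bp of each gene's nearest start are drawn by distance in bp, with negative values upstream, for the pool (middle of each row), replicate 1 (above) and replicate 2 (below), and markers grow with signal. The reproducible summits of crn-1, top-2 and chaf-2 lie in the shaded 500 bp range and those of rpa-1 and rpa-2 just left of it, all upstream.

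Okazaki fragment genes differed from each other. The flap nuclease gene crn-1, the worm FEN1, lies on chromosome I from 3481997 to 3484500 on the plus strand. Its peak from 3481546 to 3481656 had 72.6 in replicate 1, 62.5 in replicate 2 and 138 in the pool, with ranks of 672, 364 and 503. Summits in the replicates fell 0 bp and 9 bp from the pooled summit, the closest match of the 5 reproducible peaks. A long E2F site stood 5 bp from that summit. The summit lies in the 3′ untranslated exon of Y47G6A.9, a gene on the same strand that ends 281 bp before crn-1. No other gene start was within 500 bp.

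The DNA ligase gene lig-1, on V from 10814106 to 10816718 on the plus strand, had no reproducible peak, and the nearest was 5999 bp away. Its highest pooled candidate, 253 bp upstream, had a signal value of 28.03 in replicate 1, 14.1 in replicate 2 and 30.97 in the pool. The replicate summits lay 48 bp and 200 bp from the pooled one on opposite sides, so they mark different places in the same stretch. A second pooled candidate of 24.2 stood 473 bp upstream, close to the matched summit of replicate 2 at 453 bp. Ranks of the highest candidate were 2404 in replicate 1 and 4029 in replicate 2, outside the strongest 2179 in both. Its pooled summit was 366 bp from the start of the divergent gene C29A12.1. Replicate 2 had a higher candidate, of 16.6 with rank 2940, in the 5′ untranslated exon of C29A12.1, 654 bp upstream of lig-1. Among the 5813 genes with a candidate but no reproducible peak, 12.5% had a higher one than lig-1 and 8.55% a higher one than rpa-1. The window around the lig-1 summit held no E2F sequence, and the nearest long site was 631 bp upstream of the start.

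The topoisomerase genes stood far apart. The top-2 gene encodes topoisomerase II, which passes one duplex through another and frees sister chromosomes, and lies on II from 11875148 to 11880588 on the plus strand. Its peak from 11874758 to 11875022 had 330 in replicate 1, 234 in replicate 2 and 557 in the pool. It ranked 22 in replicate 1, 9 in replicate 2 and 17 in the pool, and 19 of the 1770 genes with a reproducible peak had a higher one. The summit was intergenic, 260 bp upstream of top-2 and 100 bp from the start of npp-3, a nuclear pore gene on the other strand. When each peak counted for its nearest start only, the peak went to npp-3 and top-2 was not counted. The window was also rich in CG steps, with 21, more than in 98.4% of reproducible peaks, whose median was 11.

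In contrast, top-1, which encodes the single-strand-cutting topoisomerase I, had 14.6 in the pool and 11.3 in replicate 1 at a candidate 104 bp upstream, and no candidate of replicate 2 within 500 bp. The gene lies on chromosome I from 13292506 to 13297558. Its pooled candidate ranked 17137, and 66.7% of the 5813 genes with only a candidate had a higher one. The median over those genes was 17.3. A long E2F site stood 174 bp upstream of its start and 70 bp from the candidate summit. Long sites therefore stood near the start at top-2, with a pooled signal of 557, and at top-1, with 14.6.

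The CAF-1 genes split as the topoisomerase genes did. For chaf-2, the gene of the middle subunit, the peak on chromosome I from 1823266 to 1823335 had 75.2 in replicate 1, 57.3 in replicate 2 and 130 in the pool, with ranks of 633, 426 and 545. It lay 165 bp upstream of chaf-2, in intergenic sequence, and 334 bp from the start of the divergent gene Y71G12B.30. It held 1 short E2F site, 43 bp from the summit, and no long one. For chaf-1, the gene of the large subunit, on chromosome I from 9077565 to 9080024 on the minus strand, the highest candidate had 22.6 in replicate 1, 5.92 in replicate 2 and 21.9 in the pool. Replicate 1 ranked it 3367 and replicate 2 ranked it 23925. No E2F sequence was within 100 bp of its summit, and the nearest reproducible peak was 17798 bp away.

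**Figure D3:**
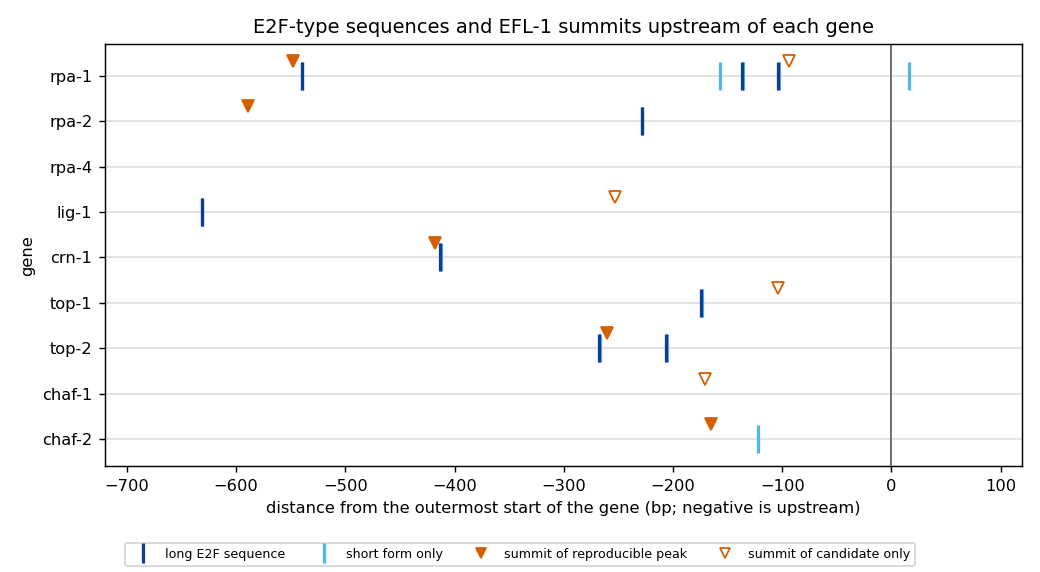
For each gene, positions of E2F-type sequences (bars, dark for the long and light for the short form) and of EFL-1 summits (triangles, filled for reproducible peaks) are drawn by distance from the outermost start in bp. Bars stand close under the filled triangles at rpa-1, crn-1 and top-2. In contrast, rpa-2, lig-1 and top-1 have a long sequence with no reproducible summit near it, and rpa-4 and chaf-1 have no E2F-type sequence. The bar under the filled triangle of rpa-1 is its long sequence 540 bp upstream. Its long sequences 137 bp and 104 bp upstream have only a candidate summit near them.

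E2F sequences were found at reproducible and at weaker sites of these genes. Of the 3 peaks within 500 bp all held the short form and 2 the long one, against 34.7% and 19% of all 1386 reproducible peaks within 500 bp of a start. With the distant rpa-1 and rpa-2 peaks included, 4 of 5 held the short form and 3 the long one, against 30.7% and 17.2% of all 2179 nuclear peaks. Of the 4 sites that were candidates only, 2 held both forms, those of rpa-1 and top-1, and those of lig-1 and chaf-1 held neither. In windows of the same length around all other pooled candidates the shares were 8.94% and 4.55%, and 53.6% held the cell cycle homology sequence described next. In 3 of the 5 peaks, at rpa-1, crn-1 and top-2, a long site was centred within 10 bp of the summit. This held for 93 of all 2179 peaks (4.27%), and 374 of the 2179 had a long site in their window. The 10 bp limit was not a planned setting. It lies just above the distances at these 3 peaks, 8, 5 and 8 bp, so the contrast carries no weight. The cell cycle homology sequence bound by LIN-54 of DREAM, TTCGAA or TTTGAA, was at 2 of the 5, those of rpa-1 and top-2, against 56.4% of all peaks, and at 1 of the 3 within 500 bp, against 61.8%.

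The same letters were counted in the window from 250 bp before to 50 bp after the outermost start of each gene, whatever was bound there. The long form was in 4 of 9 windows, those of rpa-1, rpa-2, top-1 and top-2, against 4.63% of 29314 windows at all starts. The short form was in 5 of 9, with chaf-2 added, against 9.41%. The cell cycle homology sequence was in 8 of 9, all but chaf-2, against 67.8%. Of the 4 genes with a long form there, top-2 alone had a reproducible peak within 500 bp, while crn-1 and rpa-1 had a long form under their peaks farther upstream.

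Each of the 3 peaks within 500 bp overlapped one of the strongest 2179 candidates in both replicates, and 75.4% of all genes with a reproducible peak had one near a start in both of these lists. The replicate ratios at the 5 peaks ran from 1.16 at crn-1 to 1.65 at rpa-1, all below the median of 1.70. The ratios at the candidates of rpa-1, lig-1 and chaf-1 were 4.83, 1.99 and 3.81. The authors' −log10 q-value, which tops out at 3.70 in the pool, was at that ceiling for all 5 peaks. It was 2.31, 1.91, 0.770 and 0.264 for the candidates of rpa-1, lig-1, chaf-1 and top-1. The share of all reproducible peaks at the ceiling was not counted. The lowest reproducible signal was 45.5749 and the highest candidate below the list had 45.5688. Peaks and candidates were thus already split by signal, and the q-values are no separate evidence for that split.

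**Figure D4:**
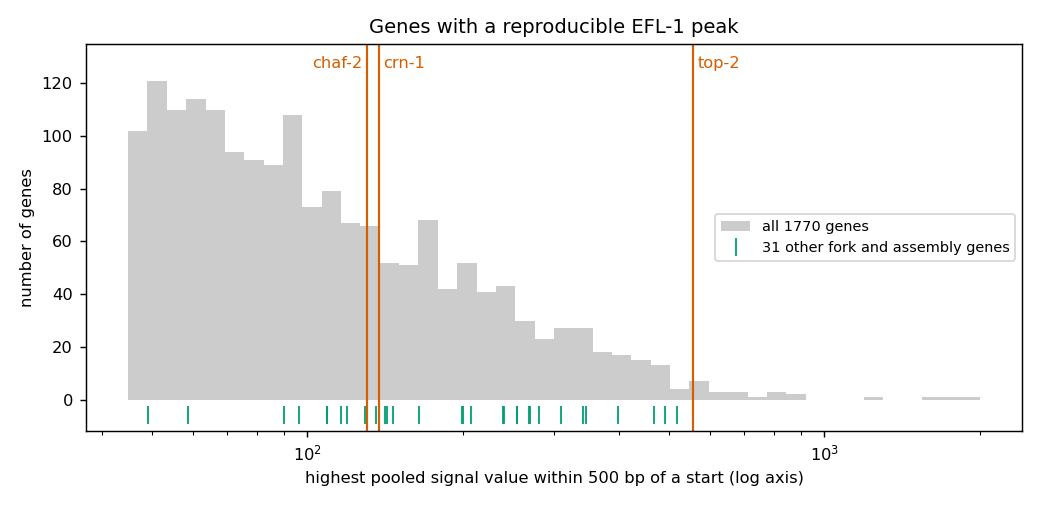
The histogram shows the highest pooled signal (log axis) of each of the 1770 genes with a reproducible peak within 500 bp of a start, with orange lines for the 3 genes described here and green ticks for 31 other fork and chromatin assembly genes. The top-2 line at 557 stands to the right of all green ticks, and chaf-2 (130) and crn-1 (138) stand close together.

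A list of 43 further genes was examined, of which 42 matched a gene: 29 fork genes, 10 chromatin assembly genes and 3 relatives of the 9 genes. A reproducible peak was within 500 bp at 31 of the 39 fork and assembly genes (79.5%, interval 64.5 to 89.2%), beside the 8.86% of the annotation, with a median signal value of 200.2 and a range from 49.2 to 518. By process these were 23 of 29 fork genes and 8 of 10 chromatin assembly genes. The highest were nasp-2, a histone chaperone gene, with 518, the helicase gene mcm-2 with 491, lin-53 with 468 and the PCNA gene pcn-1 with 399, all below the 557 of top-2. The distance from start to summit was 165, 260 and 418 bp at chaf-2, top-2 and crn-1, against a median of 153 bp and a largest value of 439 bp at these genes. At the highest peak of each gene, the short E2F form was found for 24 of the 31 and the long form for 18. The shares over all reproducible peaks within 500 bp of a start were 34.7% and 19%.

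The 3 relatives, lig-4, xpg-1 and top-3, had no reproducible peak within 500 bp, 0 of 3 beside the 8.86% of the annotation. The highest candidate was 24.1 at lig-4, the ligase of end joining, and 18.97 at xpg-1, an excision repair nuclease of the flap nuclease family, and top-3, a topoisomerase gene of another type, had none. The nuclease gene exo-1, of the same family as crn-1 but counted among the fork genes, did have a reproducible peak, with a signal value of 164.8, and is named here after its value was seen. Of the genes whose products complete CAF-1 in other animals, both of the RbAp46 and RbAp48 type, lin-53 had its peak of 468, shared with its neighbour nra-2, and rba-1 a candidate of 18.3. The values of lin-53 were 278 in replicate 1 and 190 in replicate 2, and those of rba-1 were 6.81 and 8.66. This list, too, was chosen with earlier results known.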

How the data were processed

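Peak lists of EFL-1 chromatin immunoprecipitation from 2 replicates on build ce11 were used. Per the descriptions deposited with the files, each replicate and the pool have a list of 30000 candidates with background, from which the optimal IDR-thresholded list was made. The signal (column 7) and the −log10 q-value (column 9) are the authors' deposited values. The sources used here do not give the aligner, caller, IDR threshold or treatment of multiply matching reads. No read counts are in the lists, so depth is unknown, and Wilson intervals cover counting error only. Ranks and values were compared within a list, except that the ratio of replicate 1 to replicate 2 signal was taken per site and set beside the ratios of other sites.

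Mitochondrial peaks were left out. Positions, from base 1, were compared with Ensembl release 115 gene models and RefSeq sequence of WBcel235, the same assembly as ce11. A gene took the reproducible summits within 500 bp of a protein-coding start, or otherwise its highest pooled candidate there. Replicate candidates were matched by at least 1 bp of overlap, keeping the strongest. Motifs were searched on both strands within 100 bp of summits. The 9 genes and the list of 43 others were chosen with earlier results of these data known. Named genes were the 9, genes sharing their peaks, the 4 highest of the list, the same families and lin-53 and rba-1. The 1 name without a match was cdc-45, and pold-2 was matched by its RefSeq locus tag. The functions were tested on simulated data. There was no contrast between groups and hence no test. Alternatives were distances of 200 and 1000 bp, the stronger 50% of peaks, the nearest start, each replicate alone, other overlaps and windows of 50 and 250 bp. RefSeq starts were added after seeing the data. The 10 bp summit distance and the band from 500 to 600 bp were not among the planned settings. Nor were the limits on the number of E2F sites per start window. Python 3.11.15, numpy 2.4.6, pandas 2.3.3, scipy 1.17.1 and matplotlib 3.10.9 were used.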

Additional observations from a re-analysis of the deposited data

How the results depend on the processing

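The number of the 9 genes with a reproducible peak depended on the distance. It was 3 at 500 bp, 1 at 200 bp (chaf-2) and 5 at 1000 bp, and the 200 bp limit left 0 genes with the long and 1 with the short E2F sequence. It was 3 with the stronger 50% of peaks and with RefSeq starts, 2 with the nearest start only, 4 without replicate 2 and 3 without replicate 1. The median signal of the member peaks was 130 at 200 bp and 133.9 with the nearest start only, against 138 otherwise. Of the 3 genes, 1 had matches in both replicates when 50% of both intervals had to overlap and 3 when summits had to lie within 50 bp. The intervals of crn-1 and chaf-2 were 111 and 70 bp in the pool and 276 bp in replicate 2. The other listed genes with a peak numbered from 21 at 200 bp to 32 at 1000 bp. No paired analysis was possible because there was 1 group. With 2 replicates and no read counts, sampling error of a single signal value cannot be given.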

Other observations

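Worm messenger RNAs often receive a leader by trans-splicing at sites that end in TTTCAG, and an annotated start can then be the splice site and not the place where transcription began. These letters stood directly before a start of chaf-1, chaf-2, crn-1, lig-1, rpa-1 and rpa-4, 6 of the 9 genes, against 16.7% of all 19973 protein-coding genes. By start it was 6 of 16, against 11.6% of 29314. It did not stand before the starts of rpa-2, which had CAG alone, top-1 or top-2. This was looked at after the distances had been seen. Where transcription began was not measured, and whether it bears on the distances of 418, 548 and 589 bp at crn-1, rpa-1 and rpa-2 was not tested. Of the 2253 genes with a reproducible summit within 1000 bp, 27.8% had their nearest at 418 bp or farther and 18.7% at 548 bp or farther.

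The 5 reproducible peaks were narrow. Their widths were 265 bp at top-2, 161 bp at rpa-1, 132 bp at rpa-2, 111 bp at crn-1 and 70 bp at chaf-2, all under the 276 bp that most peaks have. Of all 2179 peaks 24.7% were under 276 bp, and of the 545 strongest 87.3%. At 70 bp or less were 18 of the 2179 (0.826%), among them that of chaf-2 and those of the fork genes div-1 and tipn-1. The last 2 are named here after their widths were seen. At the other listed genes 24 of 31 peaks were under 276 bp. No source used here says how widths were set.

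The GC content within 100 bp of the summit was 49.3% at top-2, 44.8% at rpa-2, 42.8% at chaf-2, 37.8% at the distant rpa-1 peak and 34.3% at crn-1, against a median of 40.3% over all reproducible peaks. At crn-1, whose window held a long E2F sequence at its centre, 16.8% of peak windows had a lower GC content.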
